A study of Homo sapiens with 4 samples.

Results

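The genes described here are 10 regulators of the decay of cytokine mRNAs in OCI-AML3, an established human acute myeloid leukaemia cell line. They were ZFP36, ZFP36L1, ZFP36L2, ELAVL1, HNRNPD, KHSRP, RC3H1, ZC3H12A, PNRC1 and DCP2, chosen by name. All 10 had a single Ensembl identifier among the 41084 in the files, and all passed the filter on low counts that left 13698 identifiers for testing. Poly(A) RNA was sequenced in 4 libraries. The genotype label is Plex CEBPB for 2 of them and Plex Control for the other two. C/EBPβ, the product of CEBPB, is a transcription factor that switches on myeloid and inflammatory genes, and the series title places it in a feedback loop with the cytokines IL-1β and TNFα that drives drug resistance of monocytic leukaemia. The sources used here explain neither the word Plex, which both genotypes carry, nor how the CEBPB cells were made, nor whether the 2 libraries of a genotype came from separate cultures. The p-values below therefore weigh the difference between groups against the spread between libraries of a group, which may be technical.

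The targeted gene matched the labels. CEBPB stood at 536 and 339 TPM in the CEBPB libraries, against 4.72 and 4.47 TPM in the Control libraries (TPM is a level per transcript length with the same sum in each library). The edgeR log2 fold change was 6.38 with a standard error (SE) of 0.26 and an adjusted p of 1.3e-04. Gene-level values do not tell the cells' own CEBPB transcripts from those of an introduced copy. Deposited counts summed to 21950575 and 18151225 in the CEBPB libraries and to 19882347 and 21598592 in the Control libraries. All 9 listed myeloid markers, among them SPI1, CD33 and LYZ, reached 1 TPM in at least 1 library, and the 6 T and B cell markers summed to between 0.238 and 1.03 TPM per library. Of the 9 myeloid markers 3 were above both Control libraries in both CEBPB libraries (LYZ, CD14 and ITGAM), 5 were below both (SPI1, MPO, CSF3R, FCGR1A and CSF1R), and CD33 overlapped. LYZ, the lysozyme gene, was at 7686 and 7921 TPM in the CEBPB libraries, against 1413 and 1308 TPM in the Control libraries. MPO, a marker of granulocyte precursors, was at 0.194 and 0.407 TPM in the CEBPB libraries, against 0.902 and 1.79 TPM in the Control libraries. The part of these markers in the results on the regulators was not tested. Of all identifiers tested, 3251 (23.7%) passed as higher and 3390 (24.7%) as lower in CEBPB cells at an adjusted p under 0.05 (edgeR quasi-likelihood test, Benjamini-Hochberg adjustment over all 13698). In bulk RNA, a change in the share of cells in 1 state and a change in RNA per cell cannot be told apart.

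Many cytokine and early-response mRNAs are short-lived because their 3′ untranslated regions carry AU-rich elements or short stem-loops. Proteins of the ZFP36 family bind AU-rich elements and recruit the CCR4-NOT deadenylase, whereas Roquin-1 and Regnase-1 (encoded by RC3H1 and ZC3H12A) act on stem-loops. After the poly(A) tail has been shortened, the cap is removed by DCP2 and the RNA is degraded from either end. ELAVL1 (HuR) competes for AU-rich RNA and usually stabilises it, KHSRP promotes decay, and the isoforms of HNRNPD (AUF1) can do either.

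The 10 regulators did not move in 1 direction. In the CEBPB libraries 3 of them were higher (PNRC1, ZC3H12A and DCP2), 5 were lower (ZFP36, ZFP36L2, ELAVL1, HNRNPD and KHSRP) and 2 did not pass (ZFP36L1 and RC3H1). The 8 of 10 past the threshold stand against 48.5% of all identifiers tested. When the test asked for a change beyond 1.5-fold, PNRC1 and ZC3H12A were higher (8.66% of all identifiers tested were) and ZFP36 and ZFP36L2 were lower (8.67% were). The median absolute log2 fold change was 0.38 over the 10 regulators and 0.44 over all identifiers.

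**Figure D1:**
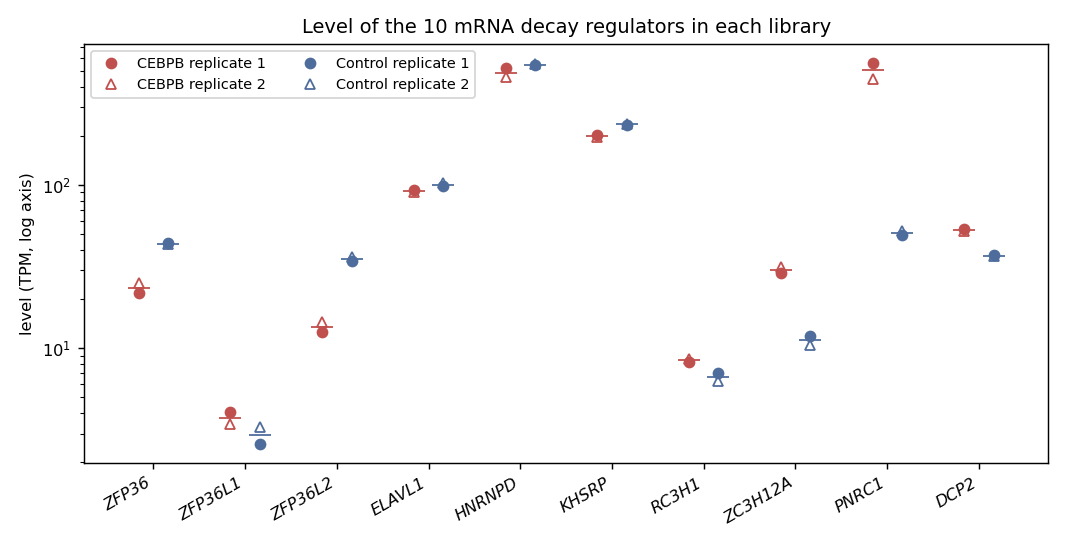
Level of each of the 10 regulators in TPM (log axis) in the 2 CEBPB and the 2 Control libraries; each point is a library and each bar the mean of its group. PNRC1 stands furthest apart, at 448 TPM or more in the CEBPB libraries and 52.3 TPM or less in the Control libraries.

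The 10 genes are protein-coding, and GENCODE v29 gives the positions printed here, on the GRCh38 build. In the ZFP36 family 2 of the 3 members were lower and none was higher. ZFP36 (ENSG00000128016.7, chromosome 19, 39406813 to 39409412, plus strand) encodes tristetraprolin, which binds and destabilises the TNF mRNA and those of many other cytokines. Its level was 21.8 and 25.2 TPM in the CEBPB libraries, against 44.0 and 43.1 TPM in the Control libraries. Both CEBPB libraries lay below both Control libraries, and the edgeR estimate was -1.07 in log2 units (SE 0.11), at an adjusted p of 0.0013. Counted from the lowest fold change, it held rank 1173 of the identifiers tested. ZFP36L2 (ENSG00000152518.8, chromosome 2, 43222402 to 43226609, minus strand) is a family member known for its part in lymphocyte and blood stem cell development in mice. It was at 12.6 and 14.4 TPM in the CEBPB libraries, against 34.0 and 35.9 TPM in the Control libraries. In edgeR the log2 change came to -1.55 (SE 0.11) and its adjusted p to 4.8e-04. That is 2.93-fold lower in the CEBPB libraries, and again neither CEBPB library reached the level of a Control library.

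ZFP36L1 (ENSG00000185650.10, chromosome 14, 68787660 to 68796253, minus strand), the third member, which also targets AU-rich mRNAs, was the lowest of the 10 regulators. It read 4.09 and 3.43 TPM in the CEBPB libraries, against 2.60 and 3.27 TPM in the Control libraries. Reads recovered from TPM and effective length were 231 and 160 in the CEBPB libraries, against 150 and 204 in the Control libraries, and overlap. The deposited counts, which are TPM times 1 constant per library, were 89.7 and 62.3 in the CEBPB libraries. They were 51.8 and 70.7 in the Control libraries and overlap too. The change in edgeR on these counts was 0.17 on the log2 scale (SE 0.23) with an adjusted p of 0.58, so no change was detected. Added up, the 3 members came to 40.8 ± 3.27 TPM in the CEBPB libraries and 81.5 ± 1.197 TPM in the Control libraries (SD, n = 2 each). ZFP36 made up 56.6% and 58.5% of the sum in the CEBPB libraries, against 54.6% and 52.4% in the Control libraries. ZFP36L1 made up 10.6% and 7.97% in the CEBPB libraries, against 3.23% and 3.98% in the Control libraries.

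**Figure D2:**
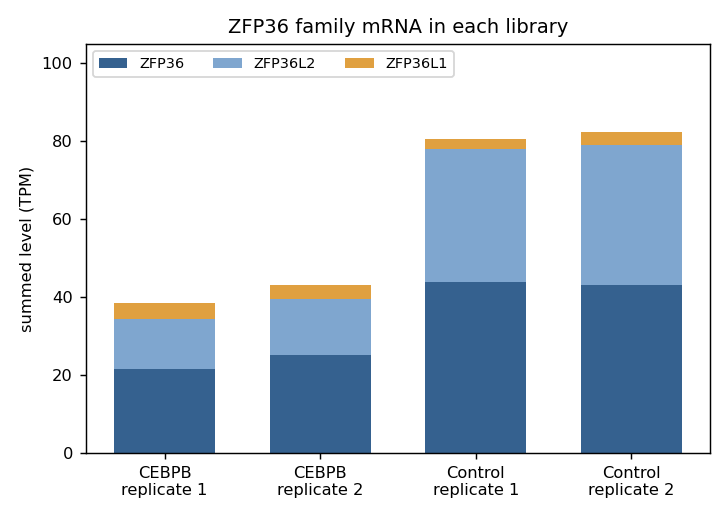
Stacked level of ZFP36, ZFP36L2 and ZFP36L1 in TPM in each library; the height of a bar is the sum of the 3. The sums were 38.5 and 43.1 TPM in the CEBPB libraries and 80.6 and 82.3 TPM in the Control libraries.

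The family's mRNAs carry the kind of element their proteins bind. The nonamer TTATTTATT, the full AU-rich site of ZFP36 proteins written as DNA, was searched on the sense strand in the 3′ untranslated region of the annotated transcript with the longest coding sequence of each gene (GENCODE v29, GRCh38). It was present once in each ZFP36 family member and once in ELAVL1, and it was not found in the other 6 regulators. Of 19500 coding genes read in the same way, 6.92% held it. The 4 sites are shown with their surroundings, and these 4 mRNAs are grouped here only because they hold the nonamer. Capitals mark the nonamer, and sequences run 5′ to 3′ on the transcript's strand.
ZFP36 (chr19:39409196-39409225, plus strand): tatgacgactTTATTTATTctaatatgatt
ZFP36L1 (chr14:68788076-68788105, minus strand): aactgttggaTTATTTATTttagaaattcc
ZFP36L2 (chr2:43223447-43223476, minus strand): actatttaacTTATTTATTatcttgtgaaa
ELAVL1 (chr19:7961827-7961856, minus strand): atttatgtatTTATTTATTgaagtgtgaaa

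In ZFP36 the nonamer begins at base 507 of an untranslated region of 713 bases, in ZFP36L1 at base 1438 of 1871, in ZFP36L2 at base 853 of 1917 and in ELAVL1 at base 1637 of 4904. The 4 mRNAs with the nonamer did not move alike: ZFP36, ZFP36L2 and ELAVL1 were lower in the CEBPB libraries and ZFP36L1 did not pass. The shorter core TATTTAT, which every nonamer contains, occurred 3 times in each ZFP36 family member and 5 times in ELAVL1. It also occurred 3 times in DCP2 and 2 times in RC3H1 and was not found in HNRNPD, KHSRP, ZC3H12A or PNRC1. Of the coding genes, 26.8% held at least 1 such core.

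ELAVL1, HNRNPD and KHSRP were abundant in both groups and slightly lower in the CEBPB libraries. ELAVL1 (ENSG00000066044.15, chromosome 19, 7958579 to 8005659, minus strand) was at 92.8 and 90.7 TPM in the CEBPB libraries, against 98.3 and 102 TPM in the Control libraries. The edgeR estimate was -0.31 in log2 units (SE 0.06), at an adjusted p of 0.0123. HNRNPD (ENSG00000138668.20, chromosome 4, 82352498 to 82374503, minus strand), the most abundant of the 10 in the Control libraries, was at 516 and 455 TPM in the CEBPB libraries, against 538 and 550 TPM in the Control libraries. In edgeR the log2 change came to -0.35 (SE 0.06) and its adjusted p to 0.0085. KHSRP (ENSG00000088247.19, chromosome 19, 6413348 to 6424794, minus strand) was at 203 and 197 TPM in the CEBPB libraries, against 232 and 236 TPM in the Control libraries, and edgeR gave -0.41 on the log2 scale (SE 0.06) with an adjusted p of 0.0036. The groups did not overlap in TPM for any of these genes, nor for any other of the 10 regulators, which was so for 77.4% of all identifiers tested.

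The calls for ELAVL1 and HNRNPD depended on how libraries were scaled. The trimmed mean of M values used here sets the median log2 fold change of all identifiers near 0, and scaling by library totals alone sets it 0.18 higher, so that 32.3% of identifiers were called higher and 17.2% lower. With library totals ELAVL1 was at -0.13 (adjusted p = 0.18, edgeR) and HNRNPD at -0.16 (adjusted p = 0.134, edgeR), both short of the threshold, whereas KHSRP (-0.23, adjusted p = 0.0287, edgeR) and the 5 other called regulators passed. Relative to the median of all identifiers, the 3 genes therefore stood lower than on the TPM scale, where the group means of ELAVL1, HNRNPD and KHSRP differed by -8.49%, -10.8% and -14.7%. ELAVL1 and HNRNPD also failed to pass without Control replicate 1 (adjusted p = 0.0659 and 0.0598, edgeR) and without Control replicate 2 (0.109 and 0.0719). GENCODE v29 places an antisense gene across each of these 2 loci, and the strand setting of the counting is not given in the sources used here, so reads of such partners could be included.

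**Figure D3:**
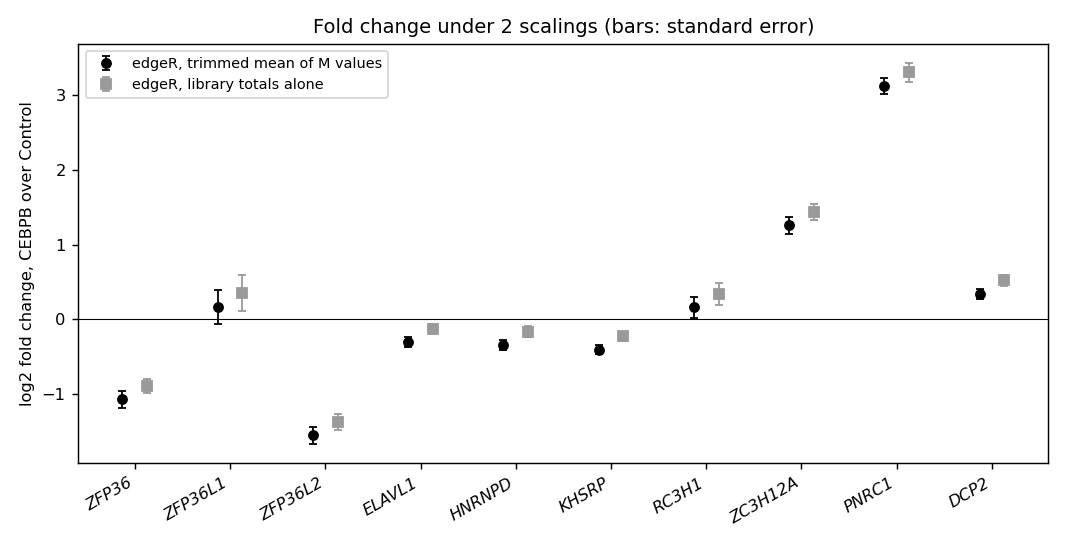
Log2 fold change of each regulator, CEBPB over Control, from edgeR with trimmed mean of M values (black) and with library totals alone (grey); bars are standard errors. Every value is higher with library totals, and no value changes sign.

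The stem-loop factors differed from each other. ZC3H12A (ENSG00000163874.11, chromosome 1, 37474552 to 37484379, plus strand) encodes Regnase-1, an endonuclease that cleaves the IL6 mRNA and other inflammatory mRNAs and is itself induced by IL-1 and Toll-like receptor signals. It was at 29.02 and 31.4 TPM in the CEBPB libraries, against 11.9 and 10.5 TPM in the Control libraries. The change in edgeR was 1.26 on the log2 scale (SE 0.12) with an adjusted p of 9.3e-04. That is 2.39-fold higher, and both CEBPB libraries lay above both Control libraries. RC3H1 (ENSG00000135870.12, chromosome 1, 173931214 to 174022297, minus strand), which encodes Roquin-1, was at 8.21 and 8.65 TPM in the CEBPB libraries, against 7.004 and 6.34 TPM in the Control libraries. RC3H1 did not pass, with an edgeR estimate of 0.16 in log2 units (SE 0.15) and an adjusted p of 0.413. It passed on reads recovered from TPM and effective length (0.20, adjusted p = 0.0366, edgeR), and not once these were offset for length (0.15, adjusted p = 0.25, edgeR). ZC3H12A made up 78.0% and 78.4% of the summed TPM of both genes in the CEBPB libraries, against 62.9% and 62.4% in the Control libraries.

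The decapping genes rose, PNRC1 by far the most. PNRC1 (ENSG00000146278.11, chromosome 6, 89080751 to 89085160, plus strand) encodes a small proline-rich protein, first described as a coactivator of nuclear receptors, that binds the decapping machinery and can draw it into the nucleolus. It was at 557 and 448 TPM in the CEBPB libraries, against 49.3 and 52.3 TPM in the Control libraries. In edgeR the log2 change came to 3.12 (SE 0.10) and its adjusted p to 9.9e-05. That is 8.71-fold higher and holds rank 218 from the highest of the 13698 identifiers tested. The CEBPB libraries differed from each other by more than the Control libraries did, with 502 ± 77.3 TPM in the CEBPB libraries and 50.8 ± 2.09 TPM in the Control libraries (SD, n = 2 each). CEBPB itself was higher in the same CEBPB library, replicate 1, but with 2 libraries per group no relation between these levels can be tested. DCP2 (ENSG00000172795.17, chromosome 5, 112976702 to 113020970, plus strand), the decapping enzyme, was at 53.3 and 52.5 TPM in the CEBPB libraries, against 37.0 and 36.6 TPM in the Control libraries. The change in edgeR was 0.34 on the log2 scale (SE 0.07) with an adjusted p of 0.0098. The call was lost without Control replicate 1 (adjusted p = 0.0668, edgeR) or Control replicate 2 (0.0763).

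These changes altered the order of the levels. In the CEBPB libraries PNRC1 (502 TPM) and HNRNPD (486 TPM) came first with overlapping libraries, followed by KHSRP, ELAVL1, DCP2, ZC3H12A, ZFP36, ZFP36L2, RC3H1 and ZFP36L1. In the Control libraries the order was HNRNPD, KHSRP, ELAVL1, PNRC1, ZFP36, DCP2, ZFP36L2, ZC3H12A, RC3H1 and ZFP36L1. Apart from PNRC1 and HNRNPD in the CEBPB libraries, no neighbours in either order overlapped. DCP2 (36.8 ± 0.28 TPM) and ZFP36L2 (34.97 ± 1.34 TPM) were the closest neighbours in the Control libraries (SD, n = 2 each). ZC3H12A stood above ZFP36 in both CEBPB libraries and below it in both Control libraries.

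The effective length deposited for each gene, the mean length in bases of its transcripts weighted by their abundance, depends on which transcripts are used, and TPM levels are already divided by it. For PNRC1 it was 1167 and 1138 bases in the CEBPB libraries, against 1244 and 1266 bases in the Control libraries. For ZC3H12A it was 2726 and 2670 bases in the CEBPB libraries, against 3014 and 3247 bases in the Control libraries. Both genes thus had shorter estimates where their levels were higher. On recovered reads, which are not divided by the length, the log2 fold change was 2.95 for PNRC1 and 0.99 for ZC3H12A, against 3.12 and 1.26 with the deposited counts. DCP2 had longer estimates in the CEBPB libraries, at 4913 and 4447 bases, against 3868 and 4255 bases in the Control libraries, and on recovered reads its log2 fold change was 0.50, against 0.34 with the deposited counts. ELAVL1 was also longer, at 2140 and 2129 bases in the CEBPB libraries, against 2017 and 1951 bases in the Control libraries. With ZFP36 (5.0% longer), 5 of 10 regulators had groups that did not overlap, against 52.3% of all identifiers.

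None of these length differences passed. Limma on log2 effective length called 0 of 13698 identifiers (0%), with 1827 (13.3%) at an unadjusted p under 0.05 and 3 regulators among them (ELAVL1, ZC3H12A and PNRC1). The lowest adjusted p of a regulator was 0.316, that of PNRC1 (log2 length ratio -0.12, SE 0.03, limma). No other tool was run on the lengths. The lengths of ZFP36L1, ZFP36L2, HNRNPD, KHSRP and RC3H1 overlapped between the groups.

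**Figure D4:**
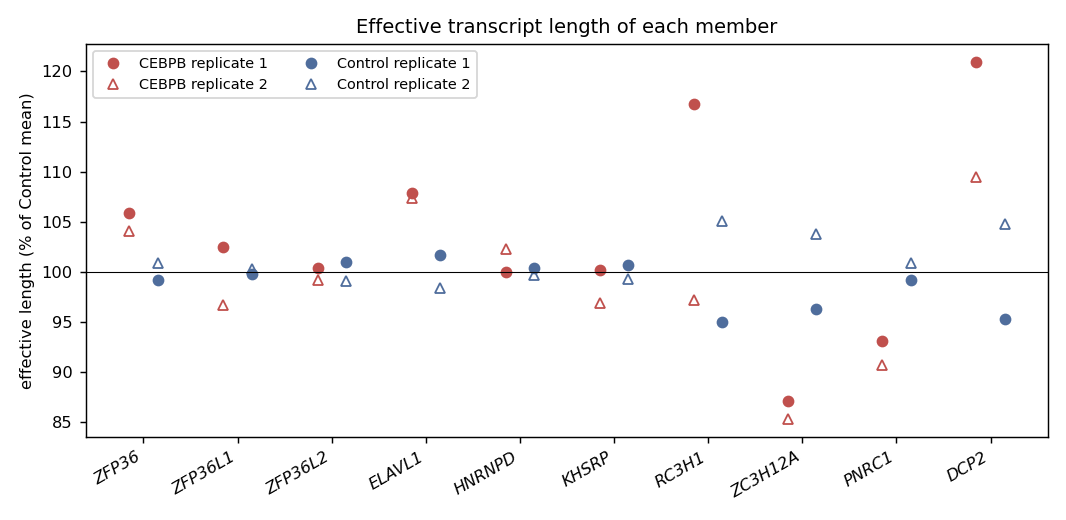
Effective length of each regulator's transcripts in each library, as a percent of the mean of the Control libraries. The CEBPB libraries lie below both Control libraries for ZC3H12A and PNRC1 and above both for ZFP36, ELAVL1 and DCP2, and limma called none of these.

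Around the 10 regulators, the complexes that carry out decay moved unevenly. Of 17 genes of the CCR4-NOT deadenylase and its adaptors, 8 were higher and 1 was lower (median log2 fold change 0.09, against 0.00 over all identifiers). Over all identifiers tested, 23.7% were higher and 24.7% lower, or 32.3% and 17.2% with library totals. These shares are the background for each list below as well. BTG1, an antiproliferative adaptor of the deadenylase, was at 256 and 275 TPM in the CEBPB libraries, against 72.9 and 74.3 TPM in the Control libraries (log2 fold change 1.67, adjusted p = 2.0e-04, edgeR). BTG3 (1.03) and the catalytic subunit CNOT6 (0.63) rose, and BTG2 fell (-0.64). The scaffold CNOT1, on which the complex is built, did not pass (0.09, adjusted p = 0.39, edgeR). Without Control replicate 1 the list had 4 higher genes, and without Control replicate 2 it had 5. On recovered reads 7 were higher and 5 lower.

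Among 19 other genes of decapping and 5′ to 3′ decay, 6 were higher and 6 lower (median 0.01), against 23.7% and 24.7% of all identifiers tested. In the test for a change beyond 1.5-fold, 2 were higher and 3 lower, against 8.66% and 8.67% of all identifiers. PATL1 (0.73) and EIF4ENIF1 (0.79), which link decapping to deadenylation and to translational repression, rose. LSM7 (-1.06) and LSM2 (-0.80), subunits of the ring that binds deadenylated ends and of the splicing ring alike, fell. With library totals 9 of the 19 were higher and 4 lower, against 32.3% and 17.2% of all identifiers. LSM7 was at 82.0 and 79.2 TPM in the CEBPB libraries, against 152 and 145 TPM in the Control libraries. Of 8 other deadenylases and poly(A) binding proteins, 4 were higher and 2 lower, with PAN2 (1.37) and NOCT (0.72) rising and PABPC4 (-1.04) and PABPC1 (-0.62) falling. Without CEBPB replicate 1 or Control replicate 2 that list had 2 higher genes. NOCT did not pass without CEBPB replicate 1 (adjusted p = 0.0619, edgeR) or CEBPB replicate 2 (0.051).

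The RNA exosome degrades RNA from the 3′ end. Of 17 genes of the exosome and SKI complex 3 were higher and 10 lower (median -0.31). The shares over all identifiers tested were 23.7% and 24.7%, or 32.3% and 17.2% with library totals. EXOSC5 was at 25.4 and 25.9 TPM in the CEBPB libraries, against 61.6 and 58.3 TPM in the Control libraries (-1.40, adjusted p = 2.5e-04, edgeR). EXOSC2 (-0.95) and EXOSC4 (-0.81), also ring or cap subunits, fell, and HBS1L, a gene of ribosome rescue whose short isoform joins the exosome to the SKI complex, rose (0.33). With library totals 5 were higher and 6 lower, and without either Control library 0 were higher and 6 lower. Without CEBPB replicate 2, 1 was higher. HBS1L itself did not pass without Control replicate 1 (adjusted p = 0.0682, edgeR) or Control replicate 2 (0.105).

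**Figure D5:**
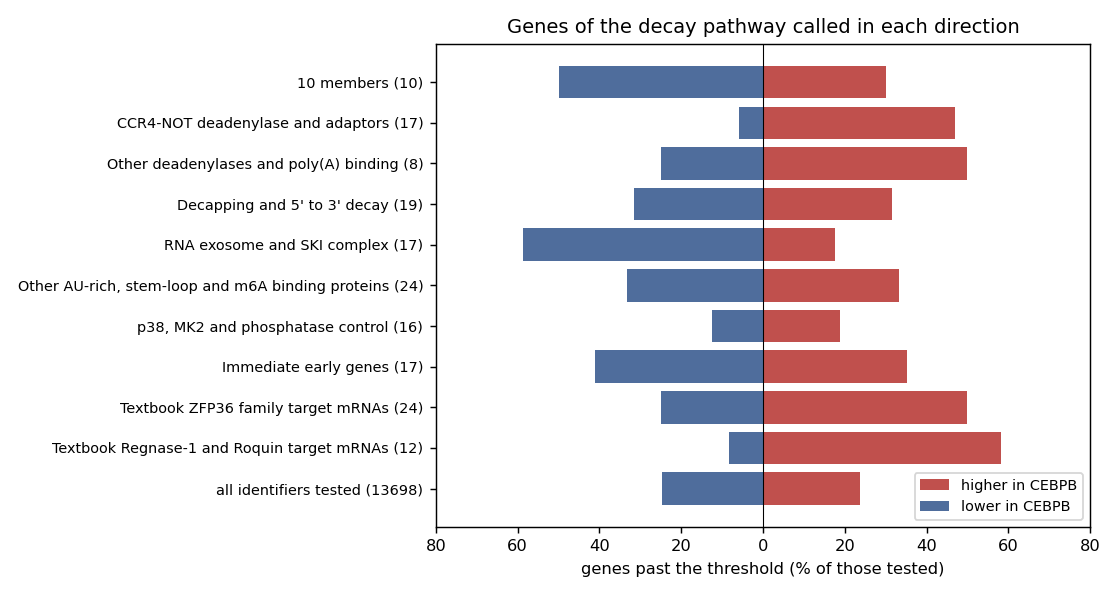
Share of the tested genes of each list that passed the threshold, higher (right, red) or lower (left, blue) in the CEBPB libraries, with the number tested in parentheses; the lowest row is all 13698 identifiers, at 23.7% higher and 24.7% lower. The exosome list lies mostly to the left and the target lists mostly to the right.

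Relatives and partners of the 10 regulators moved as well. Of 24 tested genes for other AU-rich, stem-loop or m6A binding proteins, 8 were higher and 8 lower (median -0.06). The shares over all identifiers tested were 23.7% and 24.7%, or 32.3% and 17.2% with library totals. ELAVL2, ELAVL3, ELAVL4 and ZC3H12B had too few counts to test. N4BP1 (1.57), which like Regnase-1 cleaves RNA with an endonuclease domain of the same type, and ZC3H12C (1.45), a paralog of ZC3H12A, rose. The uridylyltransferase TUT7 rose (1.47) and HNRNPA1 fell (-0.72), whose reads can be shared with its processed pseudogenes. ZC3H12C was at 18.5 and 15.2 TPM in the CEBPB libraries, against 5.02 and 5.83 TPM in the Control libraries. The other Regnase paralog tested, ZC3H12D, fell (-1.93, adjusted p = 0.0015, edgeR), and the RC3H1 paralog RC3H2 rose (0.91, adjusted p = 0.0015, edgeR); both were singled out after their values were seen. Without either Control library 5 genes of this list were higher and 3 lower, and with library totals 10 were higher and 3 lower.

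The p38 pathway controls ZFP36 proteins by phosphorylation through the kinase MK2, encoded by MAPKAPK2, and 14-3-3 proteins then bind them. Of 16 genes of this branch 3 were higher and 2 lower (median 0.08). Of all identifiers tested, 23.7% were higher and 24.7% lower, or 32.3% and 17.2% with library totals. MAPK14, which encodes p38α, was at 261 and 223 TPM in the CEBPB libraries, against 83.8 and 94.3 TPM in the Control libraries (1.26, adjusted p = 4.4e-04, edgeR). MAP2K6 (1.76), an activator of p38, and the 14-3-3 gene YWHAE (0.29) rose, and MAPKAPK3, which encodes the related kinase MK3, fell (-1.12). MAPKAPK2 itself was at 73.1 and 74.0 TPM in the CEBPB libraries, against 74.7 and 74.2 TPM in the Control libraries, and did not pass (-0.20, adjusted p = 0.0652, edgeR). MAP2K6 did not pass without CEBPB replicate 1, Control replicate 1 or Control replicate 2 (adjusted p = 0.0554 to 0.0861, edgeR), and YWHAE did not pass without Control replicate 1 (0.0978) or Control replicate 2 (0.111). Without either Control library 1 gene was higher and 1 lower, with library totals 8 were higher and 1 lower, and on recovered reads 7 were higher and 4 lower.

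ZFP36 is an immediate early gene, one of those transcribed within minutes of a stimulus. Of 17 tested genes of that kind 6 were higher and 7 lower (median 0.45, above 0 although more genes passed as lower). The shares over all identifiers tested were 23.7% and 24.7%. NR4A1 (3.54), EGR1 (3.47) and JUN (1.24) rose and FOS fell (-1.004), as ZFP36 did. NR4A1, at 0.342 and 0.423 TPM in the Control libraries, met the filter on low counts through the CEBPB libraries alone. EGR1 was at 43.5 and 31.7 TPM in the CEBPB libraries, against 3.13 and 2.89 TPM in the Control libraries, and FOS was at 15.9 and 14.5 TPM in the CEBPB libraries, against 27.5 and 26.5 TPM in the Control libraries. With library totals 8 were higher and 5 lower, against 32.3% and 17.2% of all identifiers. BTG2 and DUSP1 are also in lists above, and IER3 was listed at 0 in all 4 libraries.

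Among the listed targets of these regulators, more passed as higher than as lower. Of 24 tested mRNAs that ZFP36 proteins are known to bind 12 were higher and 6 lower (median 0.98). Over all identifiers tested the shares were 23.7% and 24.7%. In the 1.5-fold test 9 were higher and 5 lower, against 8.66% and 8.67%. The filter on low counts needs enough reads in 2 libraries, and a gene can meet it through 1 group alone. IL1A, LIF and CXCL3, all among the 12, met it through the CEBPB libraries alone (CXCL3 at 0.316 and 0.377 TPM in the Control libraries). The share of higher genes is thus partly set by the filter. PTGS2, which encodes cyclooxygenase-2, was at 236 and 208 TPM in the CEBPB libraries, against 1.07 and 0.743 TPM in the Control libraries (log2 fold change 7.77, adjusted p = 2.2e-05, edgeR). The chemokine genes CXCL1 (4.66) and CCL20 (4.49) rose, and MYC (-1.80), CCL2 (-2.62) and PLAU (-3.61) fell. IL1B, which encodes IL-1β, was higher (0.91, adjusted p = 0.00785, edgeR). It was at 124 and 84.1 TPM in the CEBPB libraries, against 50.9 and 46.6 TPM in the Control libraries. The classical target TNF was at 1.06 and 0.945 TPM in the CEBPB libraries, against 1.31 and 39.0 TPM in the Control libraries. TNF did not pass (adjusted p = 0.0613, edgeR), and the high value is that of Control replicate 2 alone. Without that library the log2 fold change of TNF was -0.58 (adjusted p = 0.536, edgeR), and without Control replicate 1 it was -5.47 (adjusted p = 1.9e-04, edgeR). The other 8 mRNAs of the list, CSF2, IL2, IL3, IL6, IL10, IFNG, CCL3 and IER3, had too few counts to test. These genes were listed with earlier results of these data known, so their direction is not independent evidence.

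Of 12 tested mRNAs known as targets of Regnase-1 or Roquin, 7 were higher and 1 lower (median 1.08), with ZC3H12A, itself such a target, among the 7. Over all identifiers tested 23.7% were higher and 24.7% lower, or 32.3% and 17.2% with library totals. PTX3 and CXCL3, also among the 7, met the filter on low counts through the CEBPB libraries alone, so this share too is partly set by the filter. NFKBIZ, which encodes an atypical nuclear IκB protein, was at 70.3 and 66.9 TPM in the CEBPB libraries, against 24.3 and 20.9 TPM in the Control libraries (1.42, adjusted p = 3.4e-04, edgeR). CXCL3 (4.72) and CXCL1 rose. TFRC, the transferrin receptor gene, fell (-0.20, adjusted p = 0.0432, edgeR) and did not pass with library totals or when any 1 of the 4 libraries was left out (adjusted p = 0.0666 to 0.275, edgeR). The list had 0 lower genes without CEBPB replicate 1 or Control replicate 2. The ZFP36 and Regnase lists have 7 genes in common, so their counts are not separate results, and whether decay of any of these mRNAs differed was not measured in these libraries.

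Promoter windows, from 250 bases before to 50 bases after a start site, were read from the RefSeq table (GRCh38.p14). For 7 of the 10 regulators a start site of the table lay within 512 bases of the GENCODE gene start. The window given for RC3H1 lies 29225 bases inside the gene and was left out. No window was found under the symbols ZFP36L2 and ELAVL1. The letters TTGCNNAA, a core of the sites that C/EBP proteins bind, were searched on both strands and were found in 1 of the 7 genes, ZFP36L1. Its window at the gene start held 2 matches. A second ZFP36L1 window, whose start site lies 2837 bases inside the gene, held 0. Of all 35116 promoters, counted by window and not by gene, 10.5% held a match. No match was found in the window of PNRC1 or of ZC3H12A.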

How the data were processed

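RNA of 2 CEBPB and 2 Control libraries was analysed. The submitters' processing notes name Trimmomatic 0.39, kallisto 0.46.2 and GRCh38; the annotation release, strand setting and step from transcripts to genes are not given in the sources used here. The authors deposited gene-level expected counts, TPM and effective lengths (bases, another unit, deposited per library). The deposited counts equal TPM times 1 constant per library and so carry no transcript length.

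Counts were rounded, filtered with filterByExpr, normalised with trimmed-mean factors between 0.938 and 1.09, and fitted in edgeR 4.0.16 under R 4.3.3 (quasi-likelihood test, Benjamini-Hochberg adjusted p under 0.05 over all identifiers; biological coefficient of variation 11.3%). The SE printed with edgeR values is not an output of its test. It was derived as the absolute log2 fold change divided by the square root of the F statistic. Log2 effective lengths were tested with limma 3.58.1.

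The 10 members, the 9 pathway lists and the tests were chosen with earlier results of these data known, and the search for the nonamer was added after the levels were seen. All members and CEBPB are named; in each list up to 4 genes with the smallest adjusted p are, with 1 of each direction where both passed, and genes named beyond these (CNOT1, MAPKAPK2 and TNF among them) were chosen after their values were seen. Alternatives were other scalings and filters, limma-voom, limma on log2 TPM (pseudocount 1 or 0.1), DESeq2 1.42.0, reads recovered as TPM times effective length (58.7% to 60.8% within 0.01 of a whole number), testing for more than a 1.5-fold change, omitting any 1 library, and a block for the replicate number. Symbols came from a table that paired 35690 of 41084 identifiers. Where a listed symbol had several identifiers, only that with the highest mean TPM was read, and the others were not added to it. Coordinates and untranslated regions are those of GENCODE v29 on GRCh38; protein sequences were not used here. Figures were drawn with matplotlib 3.10.9.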

Additional observations from a re-analysis of the deposited data

How the results depend on the processing

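No regulator changed sign under any of the 17 alternatives. PNRC1, ZC3H12A, ZFP36 and ZFP36L2 passed under all 17, and the count of 3 higher regulators stayed between 2 and 4. The count of 5 lower regulators was 3 with library totals alone, 3 with limma on log2 TPM with 1 added and 3 with 0.1 added, where ELAVL1 and HNRNPD did not pass, and 2 in the test against a 1.5-fold change. Leaving out 1 library at a time gave 3 to 5 lower regulators. Over all identifiers the 1.5-fold test called 1186 higher and 1188 lower, against 3251 and 3390 in the test against no change. Library totals gave 4424 higher and 2360 lower, so that 65.2% of calls were higher, against 49.0%. With a replicate block 3 regulators were higher and 5 lower, as without it. The labels link replicates of the 2 genotypes by number only. Deviations of CEBPB replicate 1 and Control replicate 1 from their group means had a correlation of -0.0357 over 12529 identifiers. A single such value cannot tell whether libraries of the same number shared a preparation. No effective length of a regulator was called under any of its 6 alternatives. For the list counts 64 of 306 alternative counts differed from the reported one by over 1.5 times. Where leaving out a library left 1 in a group, its spread is taken from the other group.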

Other observations

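Over all 11630 coding genes tested with an annotated 3′ untranslated region, 25.8% passed the threshold upward and 25.8% downward in CEBPB cells, with a median log2 fold change of 0.01. Among the 913 that hold the nonamer TTATTTATT there, 34.8% were higher and 17.9% lower, with a median of 0.20. Among the 215 with at least 2 nonamers, 28.4% were higher and 23.7% lower, with a median of 0.08. Genes with the nonamer had longer untranslated regions, with a median of 2679 bases against 936 bases over all coding genes, and the part of that length in these shares was not tested. This comparison was chosen after the levels were seen.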
